A study of Homo sapiens with 2 samples.

Results

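The nuclear factor kappa B (NF-κB) genes of the established human glioblastoma line U87 were examined after treatment for 72 h with the curcumin analog CCA-1.1 or with DMSO, the vehicle. The 10 genes were chosen by name, with earlier results of these data known: the subunits NFKB1, NFKB2, REL, RELA and RELB, the inhibitors NFKBIA and NFKBIE, the kinase IKBKB, and the feedback genes TNFAIP3 and BIRC3. They are 10 of 41582 gene symbols in the deposited table, and each averaged at least 1 TPM over the libraries (a transcript level scaled by transcript length and by library). Both cultures carried the genotype label WT and were grown in RPMI with fetal bovine serum. There was 1 library per condition, so differences could not be set against replicate error, and p-values were not calculated. The concentration of CCA-1.1 used for sequencing is not given in the sources used here. A level is the TPM summed over all transcripts of a gene, and a difference is log2(TPM + 1) in CCA-1.1 minus log2(TPM + 1) in DMSO, a scale that understates changes at low levels. The read depth does not follow from TPM, so no counting error is given, and in bulk RNA fewer cells of a type and less RNA per cell cannot be told apart.

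In resting cells, NF-κB dimers are held in the cytoplasm by IκB proteins. In the canonical arm, receptors for tumor necrosis factor, interleukin-1 and microbial products activate the IKK complex, in which IKBKB (IKKβ) marks IκB for degradation and frees dimers of RELA or REL with p50, the product of NFKB1. In the non-canonical arm, the kinase NIK (MAP3K14) accumulates when the TRAF3, TRAF2 and cIAP complex releases it, CHUK (IKKα) is activated, and the NFKB2 precursor is cut to p52, which pairs with RELB. NF-κB also induces its own brakes, among them IκBα (NFKBIA) and A20 (TNFAIP3), and several of its subunits. In glioblastoma the pathway is known for its link to inflammatory gene expression and a mesenchymal state.

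The promoters are shown first, searched for κB motifs because several members are genes that NF-κB induces. RefSeq promoter windows of GRCh38.p14, from 250 bases before to 50 bases after a start site, were found for 7 of the 10 genes. The windows were searched on both strands for the decameric κB consensus. At least 1 match was found in 6 of these 7 genes (NFKB1, NFKB2, REL, NFKBIA, TNFAIP3 and BIRC3), and none in the windows of RELA. Of all 35116 windows in the table, 5.91% held a match, and of all 27305 genes with a window, 7.09% had a match in at least 1 window. A match is a description of the letters, not a measured binding site. Capitals mark the κB matches in the sequences below, which are read 5′ to 3′ on the strand of the gene. The windows of NFKBIA (chr14:35404700-35404999, minus strand), BIRC3 (chr11:102317234-102317533, plus strand) and NFKB2 (chr10:102394328-102394627, plus strand) are given whole, since NFKBIA and BIRC3 are the members that differed most. For TNFAIP3, REL and NFKB1 (all plus strand), the stretch around the match is given.

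NFKBIA: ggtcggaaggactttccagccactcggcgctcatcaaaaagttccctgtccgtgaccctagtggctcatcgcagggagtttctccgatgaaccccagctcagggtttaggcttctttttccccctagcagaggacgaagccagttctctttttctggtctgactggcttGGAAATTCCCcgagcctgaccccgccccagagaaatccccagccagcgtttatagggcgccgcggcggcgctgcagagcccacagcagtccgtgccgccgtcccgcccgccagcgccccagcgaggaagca

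BIRC3: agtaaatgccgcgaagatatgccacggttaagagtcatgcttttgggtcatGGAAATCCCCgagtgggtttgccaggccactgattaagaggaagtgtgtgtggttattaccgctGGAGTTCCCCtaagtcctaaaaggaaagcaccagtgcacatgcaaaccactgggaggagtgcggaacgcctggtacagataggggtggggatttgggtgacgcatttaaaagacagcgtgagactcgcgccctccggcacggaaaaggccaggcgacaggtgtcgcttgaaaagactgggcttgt

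NFKB2: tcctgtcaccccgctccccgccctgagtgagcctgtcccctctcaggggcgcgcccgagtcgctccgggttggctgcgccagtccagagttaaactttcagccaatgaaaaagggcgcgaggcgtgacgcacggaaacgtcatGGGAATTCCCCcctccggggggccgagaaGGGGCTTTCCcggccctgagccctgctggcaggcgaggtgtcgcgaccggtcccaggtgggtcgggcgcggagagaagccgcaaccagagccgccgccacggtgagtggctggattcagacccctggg

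TNFAIP3 (chr6:137867177-137867228): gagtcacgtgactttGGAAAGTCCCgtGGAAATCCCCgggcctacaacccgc

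REL (chr2:60881512-60881552): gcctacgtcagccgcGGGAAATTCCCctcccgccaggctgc

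NFKB1 (chr4:102501295-102501334): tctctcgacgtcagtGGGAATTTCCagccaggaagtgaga

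The NFKBIA match starts 81 bases before the start site, and those of TNFAIP3 start 67 and 55 bases before it. In REL the 11 capitals hold a pair of overlapping matches, shifted by 1 base, and the same holds for the first block of NFKB2. A further NFKB2 window (chr10:102395455-102395754) held 2 more matches, 176 and 21 bases before its start site. The 6 genes with a match include both the lowest and the highest difference of the 10 members, given next. Since 6 of the 7 genes with a window held a match, this does not relate a match to a difference.

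The levels of the members spanned a wide range within each library. RELA, the main transactivating subunit of the canonical arm, had the highest level under both conditions, at 119.8 TPM with DMSO and 114.7 TPM with CCA-1.1. NFKB1, which encodes p105 and p50, had the lowest, at 5.66 TPM with DMSO and 6.28 TPM with CCA-1.1. Between them, in the order of the DMSO library, came NFKBIA, NFKB2, RELB, TNFAIP3, IKBKB, NFKBIE, BIRC3 and REL. The order in the CCA-1.1 library was the same except that NFKB2 stood above NFKBIA. Without replicates the spread of a level is unknown. Within the DMSO library, the closest neighbours were RELA and NFKBIA (1.13-fold), NFKBIA and NFKB2 (1.06-fold), IKBKB and NFKBIE (1.11-fold), and BIRC3 and REL (1.12-fold), so their order there rests on small gaps.

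**Figure D1:**
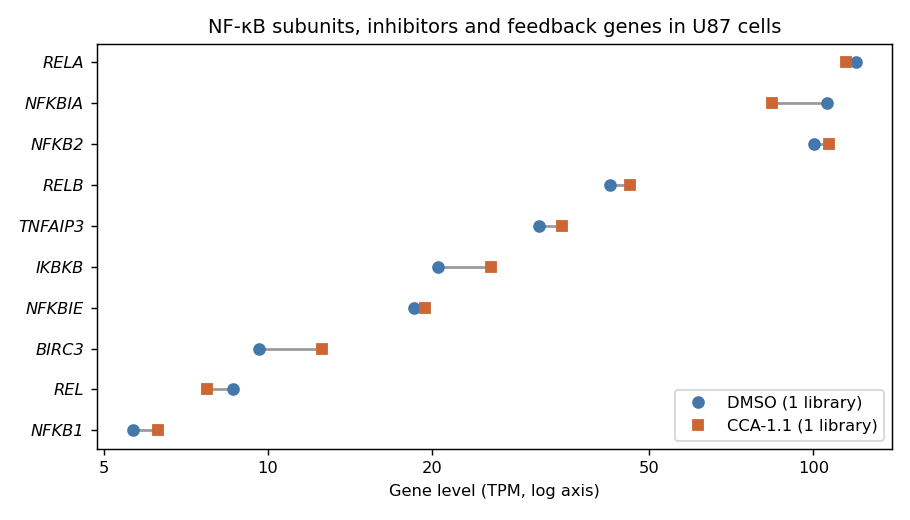
Level of each of the 10 members in the DMSO library (circles) and the CCA-1.1 library (squares), in TPM on a log axis, with 1 library per condition and no error bars. NFKBIA lay to the left in CCA-1.1, at 83.83 against 106.05 TPM, while BIRC3 and IKBKB lay to the right.

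The subunits differed little between the libraries. NFKB1 lies on chromosome 4 from 102501359 to 102617302, NFKB2 on chromosome 10 from 102394110 to 102402529, REL on chromosome 2 from 60881574 to 60931612, RELA on chromosome 11 from 65653601 to 65663857, and RELB on chromosome 19 from 45001464 to 45038192. NFKB2, the p100 and p52 gene, was at 100.34 TPM with DMSO and 106.61 TPM with CCA-1.1, a difference of 0.09. RELB, the partner of p52, was at 42.35 TPM and 46.04 TPM, a difference of 0.12. Both subunits of the non-canonical arm were thus slightly higher in CCA-1.1. REL, the c-Rel gene, was at 8.62 TPM with DMSO and 7.72 TPM with CCA-1.1, a difference of -0.14. RELA differed by -0.06 and NFKB1 by 0.13. All 5 subunit differences lay between the 5th and 95th percentiles of protein-coding genes of like level, which were -0.37 and 0.44 for genes of 1 to 10 TPM, -0.28 and 0.30 for genes of 10 to 100 TPM, and -0.31 and 0.33 above 100 TPM.

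Summed over subunits, the canonical set (NFKB1, RELA and REL) was at 134.1 TPM with DMSO and 128.7 TPM with CCA-1.1. The non-canonical set (NFKB2 and RELB) was at 142.7 TPM and 152.7 TPM. The ratio of the non-canonical to the canonical sum was 1.06 with DMSO and 1.19 with CCA-1.1. The lower canonical sum in CCA-1.1 rested on a computationally predicted transcript of RELA, at 25.36 TPM with DMSO and 19.23 TPM with CCA-1.1. The other RELA transcripts summed to 94.43 TPM and 95.50 TPM. NFKB2 was 17.7 times the level of NFKB1 in DMSO and 17.0 times in CCA-1.1, so mRNA for p100 was far above that for p105 in both libraries. These are mRNA levels and do not show how much precursor was processed.

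Of the IκB genes, NFKBIA was lower in CCA-1.1. NFKBIA encodes IκBα, the inhibitor that NF-κB re-induces fastest, and lies on chromosome 14 from 35401513 to 35404749. It was at 106.05 TPM with DMSO and 83.83 TPM with CCA-1.1, a difference of -0.34, and 4.15% of the 12041 protein-coding genes that averaged at least 1 TPM had a lower value. The table lists 1 transcript of NFKBIA (NM_020529.3), so no division of reads among isoforms enters this value. NFKBIE, the gene of IκBε on chromosome 6 from 44258166 to 44265551, also has 1 listed transcript and was at 18.52 TPM with DMSO and 19.41 TPM with CCA-1.1, a difference of 0.06. The IκBβ gene NFKBIB, which is not among the 10, was at 35.02 TPM and 38.91 TPM, a difference of 0.15, but of -0.19 over curated transcripts alone.

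NFKBIA per RELA was 0.885 with DMSO and 0.731 with CCA-1.1. For the sum of NFKBIA, NFKBIB and NFKBIE per sum of the 5 subunits, the ratio was 0.577 with DMSO and 0.505 with CCA-1.1. Of the nuclear, atypical IκB genes, NFKBIZ (IκBζ) was at 12.60 TPM with DMSO and 9.64 TPM with CCA-1.1, a difference of -0.35. NFKBID (IκBNS) was at 16.27 TPM and 12.91 TPM, a difference of -0.31. BCL3, which binds p50 and p52 dimers, differed by -0.02, and NFKBIL1 by 0.23. Within the IκB family, values therefore lay on both sides of 0.

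IKBKB and the feedback genes BIRC3 and TNFAIP3 had higher levels in CCA-1.1, with differences that did not rest on the same kind of transcript. BIRC3 encodes cIAP2, a ubiquitin ligase that acts in both arms, and lies on chromosome 11 from 102317484 to 102339403. It was at 9.64 TPM with DMSO and 12.55 TPM with CCA-1.1, a difference of 0.35, with 94.3% of the protein-coding genes below it. Its level of 11.1 TPM, as the mean of both libraries, is close to 10 TPM, and the 95th percentile of protein-coding genes of 1 to 10 TPM was 0.44. IKBKB, on chromosome 8 from 42271302 to 42332460, was at 20.47 TPM with DMSO and 25.68 TPM with CCA-1.1, a difference of 0.31, with 92.7% of the genes below it. TNFAIP3 encodes A20, a ubiquitin-editing enzyme that ends canonical signalling, and lies on chromosome 6 from 137866349 to 137883312. It was at 31.46 TPM with DMSO and 34.59 TPM with CCA-1.1, a difference of 0.13, the opposite sign to NFKBIA.

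For counts, the thresholds were a ratio of 5/4 (0.32) and of 2 on the log2(TPM + 1) scale. Of the 10 members, 1 was past 5/4-fold higher (BIRC3), 1 was past 5/4-fold lower (NFKBIA), and none was past 2-fold, with IKBKB just inside 0.32. Among the 12041 protein-coding genes of at least 1 TPM, 6.84% were past 5/4-fold higher and 4.53% lower, and 0.149% and 0.191% were past 2-fold. Over all 15485 genes of at least 1 TPM the same shares were 11.5%, 6.88%, 1.89% and 1.67%. The members' count is near this background and is no result about them as a group. Their median difference was 0.10, beside 0.02 for the protein-coding genes and 0.03 for all genes. Over curated transcripts alone the members' median was 0.02.

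The difference of IKBKB rested on predicted transcripts. RefSeq separates curated transcripts (NM_ and NR_ identifiers) from those predicted by a genome annotation pipeline (XM_ identifiers), and Kallisto divides shared reads among all of them by estimation. Of the 16 IKBKB transcripts in the table, the curated ones summed to 13.50 TPM with DMSO and 12.67 TPM with CCA-1.1, and the predicted ones to 6.97 TPM and 13.01 TPM. The share of predicted transcripts in IKBKB was thus 34.0% with DMSO and 50.7% with CCA-1.1. The largest curated transcript, NM_001556.3, was at 5.78 TPM and 6.78 TPM. XM_047421764.1 was at 0.52 TPM and 2.84 TPM, XM_047421763.1 at 0.43 TPM and 2.21 TPM, and XM_047421762.1 at 1.56 TPM and 3.35 TPM. Over curated transcripts alone the IKBKB difference was -0.085, with the sign turned.

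NFKB1 showed the same pattern at a lower level. Its curated transcripts summed to 3.07 TPM with DMSO and 2.57 TPM with CCA-1.1, a difference of -0.19, against 0.13 for the whole gene. XM_024454068.1 made up 23.9% of NFKB1 with DMSO and 58.3% with CCA-1.1, while XM_047415743.1 was at 1.07 TPM with DMSO and was listed at 0 in CCA-1.1. The overlapping antisense gene NFKB1-AS1 was at 0.99 TPM and 1.65 TPM, and whether counting used the strand is not given in the sources used here, so reads of the pair may not have been told apart. In TNFAIP3, the curated sum was 24.19 TPM and 24.64 TPM, a difference of 0.03. XM_047419282.1 of TNFAIP3 was at 1.60 TPM with DMSO and listed at 0 in CCA-1.1, and XM_005267119.1 was at 3.98 TPM and 6.07 TPM. An exchange of estimates between transcripts of these genes was not tested, since it needs reads.

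RELA moved the other way by kind of transcript. NM_021975.4 was at 92.39 TPM with DMSO and 93.95 TPM with CCA-1.1, and XM_047427392.1 was at 25.36 TPM and 19.23 TPM, so the curated difference was 0.02 against -0.06 for the gene. For NFKB2 no predicted transcript is listed, and its main forms kept their shares, with NM_001077494.3 at 37.3% with DMSO and 38.1% with CCA-1.1 and NM_002502.6 at 27.6% and 27.7%. REL had all its TPM in NM_001291746.2, with its other 2 transcripts listed at 0 in both libraries. BIRC3 had 100% of its TPM in NM_001165.5 with DMSO and 98.8% with CCA-1.1. Across the 10 members, 62 transcripts are listed, 15 of them at 0 in both libraries. Of the 29 that averaged at least 1 TPM, 2 were past 2-fold higher and none lower, beside 3.62% and 3.36% of all 33433 such transcripts. These transcripts were singled out after their values had been seen.

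**Figure D2:**
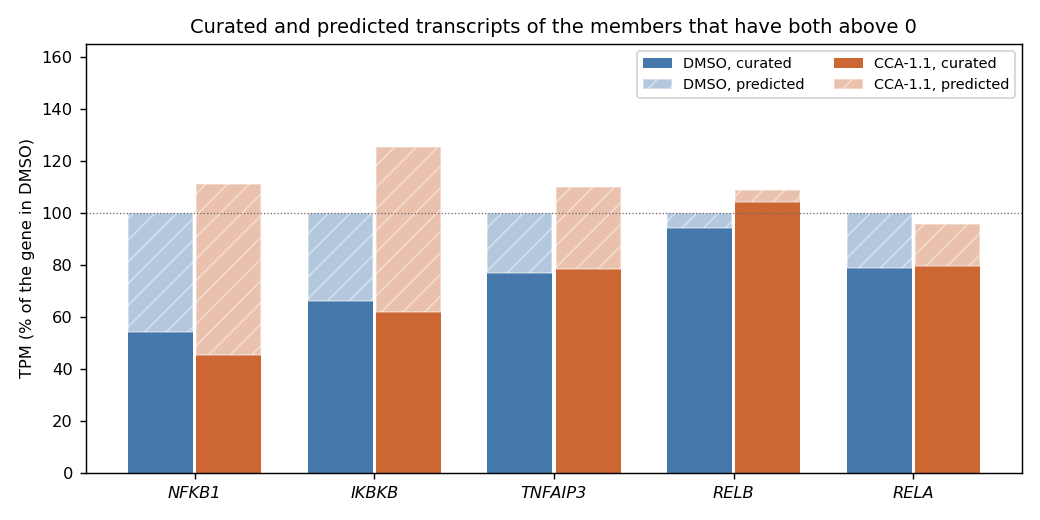
TPM of curated (solid) and predicted (hatched) transcripts of the 5 members that have both above 0, as a percentage of the gene's TPM in the DMSO library. Each bar is 1 library, DMSO at left and CCA-1.1 at right. The hatched part of IKBKB is larger in the CCA-1.1 bar and holds 50.7% of the gene in CCA-1.1 against 34.0% in DMSO.

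The arms were compared through lists that hold members and their partners. Each list mixes activators with inhibitors, so a median does not measure the activity of an arm. BIRC3, which acts in both arms, was placed in the non-canonical list alone, and the medians depend on such choices. The canonical list (NFKB1, RELA, REL, NFKBIA, NFKBIB, NFKBIE, IKBKB, IKBKG and TNFAIP3) had a median difference of 0.06, with 6 of 9 genes higher in CCA-1.1 and 3 lower. The non-canonical list (NFKB2, RELB, MAP3K14, CHUK, TRAF3, TRAF2, BIRC2 and BIRC3) had a median of 0.10, with 6 of 8 higher and 2 lower. In each list 1 gene was past 5/4-fold, NFKBIA lower in the first and BIRC3 higher in the second. Of the protein-coding genes of at least 1 TPM, 6.84% were past 5/4-fold higher and 4.53% lower. Their median was 0.02, and 46.0% of them lay below 0. The counts are therefore no result about the arms. Of the complex that holds NIK in check, TRAF3 was at 19.67 TPM with DMSO and 18.31 TPM with CCA-1.1, TRAF2 at 29.6 TPM and 31.04 TPM, and BIRC2 (cIAP1) at 27.79 TPM and 30.47 TPM. BIRC3, the other cIAP, was below BIRC2 in both libraries. Over curated transcripts alone the medians were -0.085 and 0.12. Over all transcripts, single genes ran from -0.34 to 0.31 in the canonical list and from -0.10 to 0.35 in the non-canonical list. With 1 library per condition, the gap between the arms could not be set against replicate error.

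In the IKK complex, CHUK was at 34.82 TPM with DMSO and 40.73 TPM with CCA-1.1, a difference of 0.22. IKBKG, which encodes the scaffold NEMO, was at 58.07 TPM and 58.91 TPM. A near-identical pseudogene of IKBKG exists, so that value is uncertain. The NIK gene MAP3K14 was at 12.11 TPM and 11.46 TPM, a difference of -0.07. The IKK relative TBK1 differed by 0.06, and IKBKE, at 1.03 TPM and 1.06 TPM, was the lowest kinase of the group. No gene of this group was past 5/4-fold, beside 6.84% of protein-coding genes higher and 4.53% lower, which is no result for so few genes.

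Upstream of IKK, 17 of 18 adaptor and kinase genes averaged at least 1 TPM, and 1 of them was past 5/4-fold. This was RIPK1, a scaffold kinase of the tumor necrosis factor receptor complex, at 12.90 TPM with DMSO and 9.96 TPM with CCA-1.1, a difference of -0.34. Its curated transcripts summed to 4.98 TPM and 5.52 TPM, so the sign turned to 0.12 on those alone. Of the 10 other negative regulators, 1 was past 5/4-fold, ZC3H12A (regnase-1, a nuclease that degrades inflammatory mRNA), at 59.46 TPM and 43.68 TPM, a difference of -0.44. TNIP1 and TRAF1, which NF-κB also induces, differed by -0.01 and 0.04. Beside the 4.53% of protein-coding genes past 5/4-fold lower and 6.84% higher, 1 gene in each list is no result about these groups.

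Of 7 receptors that averaged at least 1 TPM, 3 were past 5/4-fold lower and none higher. TNFRSF1B, the second tumor necrosis factor receptor, was at 7.06 TPM with DMSO and 4.02 TPM with CCA-1.1, a difference of -0.68. IL1R1, the signalling interleukin-1 receptor, was at 24.63 TPM and 18.74 TPM, a difference of -0.38. Over curated transcripts alone the IL1R1 difference was -0.31, inside 5/4-fold. LTBR, the lymphotoxin β receptor that feeds the non-canonical arm, was at 3.92 TPM and 2.79 TPM, a difference of -0.38. The 5th percentile of protein-coding genes of 1 to 10 TPM was close to this, at -0.37. TNFRSF12A, the TWEAK receptor and by far the highest receptor of the list, was at 317.9 TPM and 318.3 TPM. TNFRSF1A differed by -0.12 and TLR4 by 0.00. IL1RAP was higher, at 7.12 TPM with DMSO and 8.42 TPM with CCA-1.1, a difference of 0.21. Of the 7 receptors, 3 were above 0 and 4 below. Over all 44 pathway genes outside the members that averaged at least 1 TPM, 6 (13.6%) were past 5/4-fold lower and none higher, with a median of 0.00, beside the 4.53% and 6.84% of protein-coding genes. With a minimum of 10 TPM, 4 were lower, and over curated transcripts alone 5 were. These 5 are not a subset of the 6, since RIPK1 and IL1R1 dropped out and OTULIN entered. OTULIN differed by -0.66 over curated transcripts (10.56 TPM with DMSO and 6.34 TPM with CCA-1.1), but by 0.05 for the whole gene. The lists overlap: of the 6, NFKBIZ and ZC3H12A are counted again among the target genes below.

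**Figure D3:**
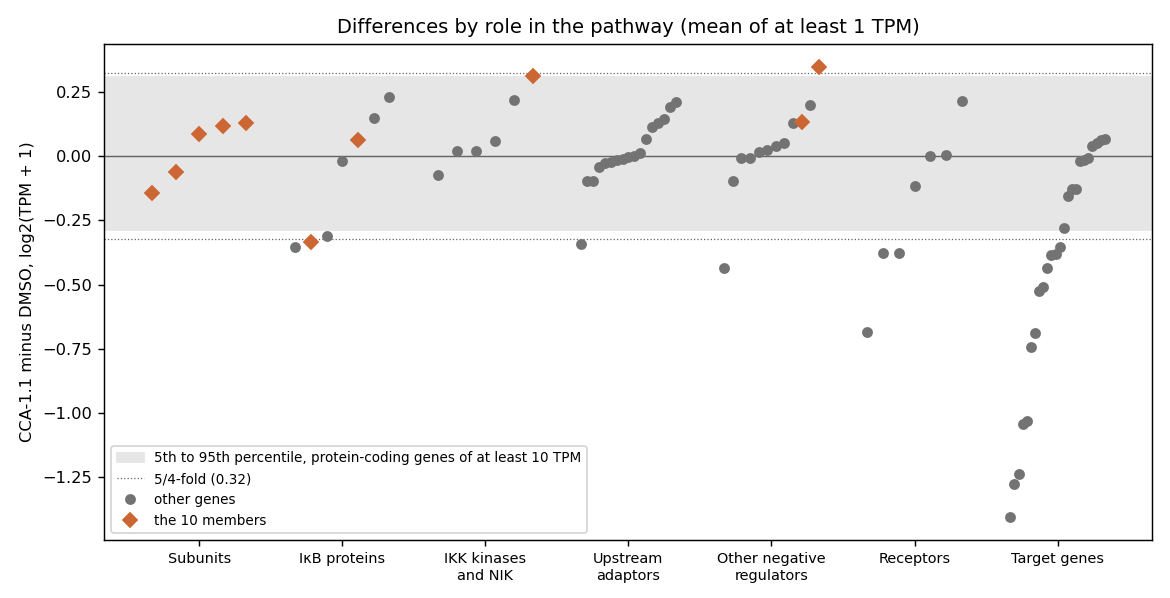
Difference on the log2(TPM + 1) scale of each gene averaging at least 1 TPM, by role; each point is 1 gene, diamonds are the 10 members and dotted lines mark 5/4-fold (0.32). Grey marks the 5th to 95th percentile (-0.29 to 0.31) of 7906 protein-coding genes of at least 10 TPM. Subunits lie inside it, while the points of the target genes reach down to -1.41.

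Known NF-κB target genes outside the 10 members had mostly lower levels in the CCA-1.1 library. The counts below leave out members that NF-κB also induces. Of these, NFKBIA was lower (-0.34), while TNFAIP3 (0.13) and BIRC3 (0.35) were higher. Of 32 genes on a list of known targets, 24 averaged at least 1 TPM, of which 13 were past 5/4-fold lower, 5 of these past 2-fold, and none was past 5/4-fold higher, beside 4.53%, 0.191% and 6.84% of the protein-coding genes. The median was -0.37, beside 0.02 for the protein-coding genes. The list was written when the falls of CXCL8, PTGS2, CCL5 and MMP3 were known, so it is no independent evidence of its direction. Without these 4 genes, 9 of 20 (45%, beside the same 4.53%) were past 5/4-fold lower, with a median of -0.22. These 20 come from the same list, chosen with earlier results of these data known, so they are no independent evidence either. Beyond the 4, the interleukin IL6 was past 2-fold lower, at 11.11 TPM with DMSO and 4.92 TPM with CCA-1.1. IL1B was at 74.59 TPM and 44.18 TPM, a difference of -0.74. PLAU, the urokinase gene, differed by -0.69 (90.12 TPM and 55.61 TPM), CXCL2 by -0.53, CCL2 by -0.51, SOD2 by -0.39 and CXCL3 by -0.38.

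Other well known targets were within the 5/4 threshold. The lowest of these were CFLAR, at 87.43 TPM with DMSO and 71.76 TPM with CCA-1.1 (-0.28), and IL1A (-0.16). IER3 was at 1895 TPM with DMSO and 1965 TPM with CCA-1.1, BCL2L1 differed by 0.07, LIF by -0.01, ICAM1 by -0.13, GADD45B by -0.13 and TNFAIP2 by 0.06. Of regulators that NF-κB induces, not all of them brakes, NFKBIA, NFKBIZ and ZC3H12A were past 5/4-fold lower. TNFAIP3, TNIP1, BCL3 and TRAF1 were not, and BIRC3 was past it in the other direction. Among targets with a promoter window, 4 of the 10 genes past 5/4-fold lower held a κB match, and 3 of the 9 others of at least 1 TPM did.

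**Figure D4:**
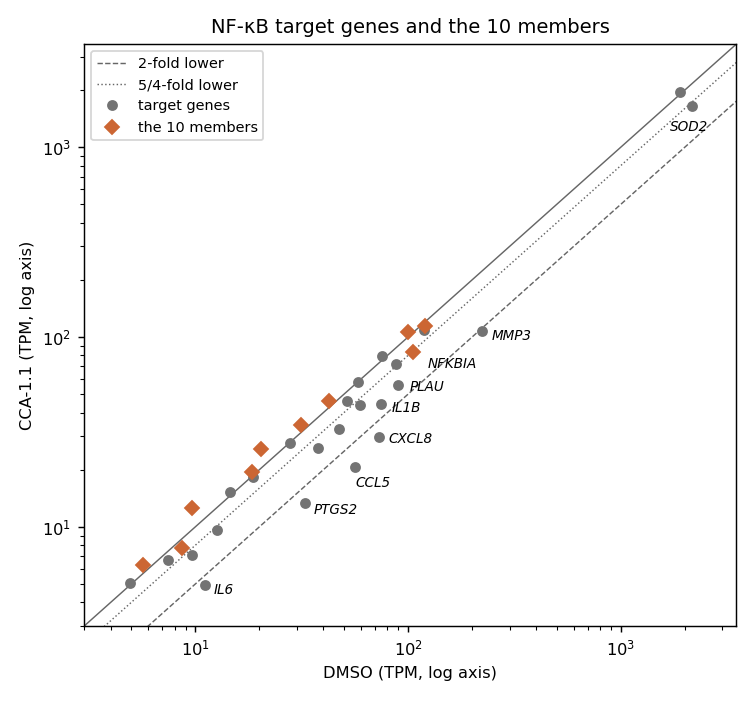
Level of 24 NF-κB target genes (circles) and the 10 members (diamonds) in the DMSO library (x axis) and the CCA-1.1 library (y axis), in TPM on log axes, with lines for equal level and for TPM ratios 5/4-fold and 2-fold lower. The members lie near the line of equal level from 5.66 to 119.8 TPM, with NFKBIA below it and BIRC3 and IKBKB above it, while CCL5, CXCL8, PTGS2, IL6 and MMP3 lie past the 2-fold line.

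Markers of the cells were checked in both libraries. Of 9 glioma and mesenchymal markers, VIM, FN1, CHI3L1 and CD44 had the highest levels, while GFAP was below 1 TPM and S100B was listed at 0 in both libraries. The list summed to 20027 TPM with DMSO and 17080 TPM with CCA-1.1. FN1 made up most of this sum, at 11241 TPM and 9088 TPM, and CD44 was at 607.4 TPM and 472.6 TPM. VIM, CHI3L1 and SOX2 were also lower in CCA-1.1. NES (7.53 TPM and 7.62 TPM), OLIG2 (5.64 TPM and 7.03 TPM) and GFAP (0.41 TPM and 0.57 TPM) were higher. The part of these shifts in the members' differences was not tested. Of 6 leukocyte markers, PTPRC was at 0.09 TPM and 0.07 TPM, and AIF1 and CD3E were listed at 0. CD68, a lysosomal gene that tumor cells also express, made up most of that list's sum, which was 496.8 TPM with DMSO and 399.5 TPM with CCA-1.1. The endothelial list summed to 3.93 TPM and 3.23 TPM, and the epithelial list to 0.34 TPM and 0.22 TPM. The neuronal list summed to 35.2 TPM and 30.8 TPM, with SNAP25 lower in CCA-1.1 and SYT1 and RBFOX3 higher.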

How the data were processed

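mRNA was enriched from U87 cells and sequenced by the authors, who checked reads with FastQC 0.11.9 and MultiQC 1.1, versions also given in the submitters' processing notes. Kallisto, with RefSeq for GRCh38.p14 as its reference, gave the transcript estimates. The deposited values are TPM from the authors, with 1 column per library and 1 library per condition. Of 177816 transcripts, 169966 were matched to a symbol with a RefSeq gene table of GRCh38.p14, versions ignored where needed, and TPM was summed per gene. The unmatched ones held 0.941% and 0.967% of the TPM. Differences used a pseudocount of 1 TPM, and list summaries a minimum mean of 1 TPM. No test was run and no p-value calculated. Thresholds were 5/4-fold and 2-fold. The text names the 10 members, the IκB and IKK genes, and list genes past 5/4-fold; other genes, and all transcripts, were chosen after their values were seen. The members and lists were chosen with earlier results of these data known. Alternatives were pseudocounts of 0.1 and 0.01 or none, median-ratio scaling, curated transcripts only, and other minimum means. The calculation was tested on simulated data. Python 3.11.15, numpy 2.4.6, pandas 2.3.3 and matplotlib 3.10.9 were used.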

Additional observations from a re-analysis of the deposited data

How the results depend on the processing

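Read depth is unknown from TPM, so low values such as those of NFKB1 and REL have no counting error, and no library could be left out. No paired analysis was possible because each condition had 1 library. A value counted as moved when it shifted by more than 0.16, a spread taken from the 16th and 84th percentiles of protein-coding genes of at least 10 TPM. Over curated transcripts alone, NFKB1 was at -0.19 and IKBKB at -0.085, RELA changed sign to 0.02, RIPK1 reversed to 0.12, and 1 target gene, TNFAIP2, was past 5/4-fold higher (0.39). The medians of the canonical and non-canonical arms were then -0.085 and 0.12. With a pseudocount of 0.1 or 0.01 TPM, 2 members were past 5/4-fold higher, since IKBKB (0.33) joined BIRC3 (0.38). With no minimum mean, 1 target gene and 1 pathway gene were past 5/4-fold higher. Median-ratio scaling, with a ratio of 1.003, changed the sign of 0 of the 10 members, as did both other pseudocounts and no pseudocount, the last chosen after seeing the data. NFKBIA was at -0.34 under each setting run. Of the 13 lower target genes, 11 had a mean of at least 10 TPM. The target list without the 4 known genes was also added after seeing the data.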

Other observations

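CXCL1, a chemokine gene that NF-κB induces together with its neighbours CXCL2 and CXCL3, was listed at 0 in both libraries, whereas CXCL2 was at 47.55 TPM with DMSO and 32.71 TPM with CCA-1.1 and CXCL3 was at 9.61 TPM and 7.14 TPM. Whether this 0 is a failed estimate was not tested. WAKMAR2, a long non-coding gene that overlaps TNFAIP3 in the annotation, was at 2.15 TPM with DMSO and 2.80 TPM with CCA-1.1, on the same side of 0 as TNFAIP3. The promoters of RELB, NFKBIE and IKBKB were not analysed here.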
